A study of Mus musculus with 18 samples.

Results

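The 30 genes followed here were grouped under mitochondrial fatty acid oxidation and ketone bodies. Where in the cell each product acts was not examined. In the whole series 18193 genes had a probe set naming 1 gene. They were listed by their place in the pathway, with earlier results of these data already known. The list holds 5 genes of the carnitine shuttle, 8 acyl-CoA dehydrogenases and 5 of the later steps of the cycle. It also holds 5 auxiliary enzymes, 3 genes of electron transfer and 4 of ketone body and short-chain substrate use. For 29 of the 30 genes a probe set named the gene alone. Where a gene had several, the 1 of highest mean was taken (54 probe sets in all). Cpt1b, the muscle isoform of carnitine palmitoyltransferase 1, was hit only by a probe set that also names Chkb and the predicted gene Gm44502. That probe set is given separately as the shared Cpt1b probe set, is not counted among the 29, and cannot be read as a level of Cpt1b alone.

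RNA came from interscapular brown adipose tissue (BAT), inguinal subcutaneous white fat (sWAT) and mesenteric white fat (mWAT) of female Sv129 mice aged 10 weeks, housed for 10 days at 6 or 28°C. Each depot at 6°C and each depot at 28°C had 3 Affymetrix arrays, 18 in all, and the labels name no altered gene and no agent other than temperature. The labels do not tell which arrays came from the same mouse, so depots were compared without pairs. Groups follow the titles, since the tissue and temperature tags of the same arrays contradict them. Zic1, a transcription factor gene of brown fat, read 9.67 to 9.93 on the log2 intensity scale on the 6 BAT arrays and 2.50 to 3.74 on the 12 white fat arrays. That order is the one the titles give for brown against white fat. Zic1 was not used to check sWAT against mWAT, or 6 against 28°C.

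Fatty acids enter mitochondria as carnitine esters, which carnitine palmitoyltransferase 1 makes on the outer membrane and carnitine palmitoyltransferase 2 turns back into acyl-CoA inside. Each turn of beta-oxidation then runs through an acyl-CoA dehydrogenase, a hydratase, a second dehydrogenase and a thiolase, and the first electrons pass through the flavoprotein ETF and its dehydrogenase to ubiquinone. Brown fat burns fatty acids this way to make heat in the cold, and white depots can gain cells of brown character ("brite" cells) when animals are kept cold.

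Promoter windows of 24 of the 30 genes, 26 windows in all, were found in the RefSeq table for GRCm38.p6, each with 250 bases before and 50 after a start site. Windows of Acad10, Acad12 and Etfdh are shown, genes with large depot or cold differences, picked from those whose window matches the NRF1 motif. That motif is GCGC and TGCGC with 1 base of any kind between them, on either strand, with matches in capitals. The windows of Hadha, Eci1 and Bdh1, genes with large differences too, held no match. NRF1 is a transcription factor of many genes for mitochondrial proteins. The windows lie on the minus strand at chr5:121660461-121660760 (Acad10), chr5:121618889-121619188 (Acad12) and chr3:79628718-79629017 (Etfdh).
Acad10: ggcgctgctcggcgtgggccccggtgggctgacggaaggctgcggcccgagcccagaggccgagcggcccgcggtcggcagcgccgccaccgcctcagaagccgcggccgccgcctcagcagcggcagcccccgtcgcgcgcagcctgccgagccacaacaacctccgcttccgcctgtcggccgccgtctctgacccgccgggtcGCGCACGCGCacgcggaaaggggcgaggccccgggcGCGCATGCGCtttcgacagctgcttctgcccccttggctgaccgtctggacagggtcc
Acad12: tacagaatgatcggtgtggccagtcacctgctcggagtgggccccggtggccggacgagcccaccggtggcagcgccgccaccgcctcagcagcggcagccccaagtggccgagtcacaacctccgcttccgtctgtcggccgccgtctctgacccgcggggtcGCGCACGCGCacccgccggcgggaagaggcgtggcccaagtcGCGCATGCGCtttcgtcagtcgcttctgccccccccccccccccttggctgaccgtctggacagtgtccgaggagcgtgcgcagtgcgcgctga
Etfdh: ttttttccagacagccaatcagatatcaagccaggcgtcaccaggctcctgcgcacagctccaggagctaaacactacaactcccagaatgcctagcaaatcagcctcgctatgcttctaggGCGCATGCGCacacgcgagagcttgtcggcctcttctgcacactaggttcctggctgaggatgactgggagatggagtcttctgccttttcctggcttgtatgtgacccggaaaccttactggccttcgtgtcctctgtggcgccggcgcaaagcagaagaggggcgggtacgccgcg

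Acad10 and Acad12 are neighbours, with 2087 bases between them, and 164 of the 300 bases of the Acad10 window lie in stretches of 12 or more bases that the Acad12 window also holds. The NRF1 letters stood in 5 of the 26 windows (19.2%; also those of Echdc1 and Etfb) and in 4.6% of the 32851 promoters of the table. No window held the estrogen-related receptor element TCAAGGTCA (either strand, as for each motif here, and in 0.423% of all promoters), the direct repeat of AGGNCA with 1 base between the copies (0.381%) or the cAMP response element TGACGTCA (1.79%). The shorter half-site AAGGTCA stood in that of Acadm alone, against 4.72% of all promoters. No match overlapped a match to another motif, and a match describes letters only.

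Hadha and Hadhb, which encode the 2 subunits of the trifunctional protein, start 273 bases apart on opposite strands, so that their windows overlap. The Hadhb window, on the plus strand at chr5:30155003-30155302, is shown with the 228 bases that the Hadha window also covers in capitals.
Hadhb: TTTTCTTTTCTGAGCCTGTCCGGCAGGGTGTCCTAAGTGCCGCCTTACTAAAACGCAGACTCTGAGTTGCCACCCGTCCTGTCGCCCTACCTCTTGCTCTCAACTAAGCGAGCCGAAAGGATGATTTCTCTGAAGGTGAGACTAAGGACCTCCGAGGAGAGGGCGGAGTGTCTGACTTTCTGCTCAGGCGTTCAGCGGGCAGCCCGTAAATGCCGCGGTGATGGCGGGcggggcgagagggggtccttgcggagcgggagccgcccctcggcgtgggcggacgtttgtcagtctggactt

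All levels are log2 intensities and all differences are log2 differences ± SE from limma, with p-values adjusted over 45037 probe sets and a threshold of 0.01 called "past the threshold". The array medians ran from 6.97 to 7.20. Of the 29 genes, 10 were brighter than the 99th percentile on all 6 BAT arrays and 1 on all 12 white fat arrays. Saturation was not recorded, so differences that involve the brightest probe sets may be too small. In bulk tissue, fewer cells of a type and less RNA per cell cannot be told apart.

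Other cell types differed between arrays of 1 group. All 15 genes of a skeletal muscle list were measured, with a mean level of 7.49, 10.21 and 8.27 in BAT at 6°C, 8.81, 12.77 and 12.34 in BAT at 28°C, 6.39, 11.26 and 7.28 in sWAT at 6°C, and 10.17, 12.08 and 7.67 in sWAT at 28°C. In mWAT it was 6.48 to 7.69. A lymphocyte list (11 of 14 measured) averaged 7.34 in replicate 3 of mWAT at 6°C and 7.44 in replicate 3 of mWAT at 28°C, against 11.44 to 11.66 on the other 4 mWAT arrays. A pancreas list (6 of 8 measured) averaged 14.12 in replicate 2 of mWAT at 6°C, 10.17 in replicate 1 of mWAT at 28°C and 10.69 in replicate 3 of BAT at 6°C, against 4.73 to 7.33 on the other 15 arrays. The 2 mWAT arrays low in lymphocyte transcripts correlated at 0.991 with each other over probe sets and at 0.949 to 0.969 with the rest.

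In sWAT part of the pathway rose in the cold. Of the 29 genes, 8 were higher at 6 than at 28°C and none lower past the threshold, where 0.72% of all genes were called higher and 0.022% lower. They were Cpt2, the 3 dehydrogenases of very long, long and medium chains (Acadvl, Acadl, Acadm), both subunits of the trifunctional protein (Hadha, Hadhb), the thiolase Acaa2 and the ETF dehydrogenase Etfdh. The median difference of the 29 was 0.61, against -0.0016 over all genes.

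Hadha, the subunit with hydratase and long-chain hydroxyacyl-CoA dehydrogenase activity, read 12.68, 12.43 and 12.53 in sWAT at 6°C and 10.99, 11.08 and 11.53 in sWAT at 28°C. All cold arrays lay above all warm ones. On the probe sets used, the difference of 1.35 ± 0.17 (2.54-fold, adjusted p = 0.00118) was the largest among the 29. Acaa2, the thiolase of medium and long chains, read 13.51, 13.41 and 13.54 at 6°C, against 12.14, 12.19 and 12.25 at 28°C (1.29 ± 0.13, 2.45-fold, adjusted p = 0.000196). These 2 groups were also clearly apart, with a spread within each that was far smaller than the gap. Other probe sets of Acaa2, both dimmer, gave 1.08 ± 0.12 and 1.95 ± 0.16, the latter more than Hadha (adjusted p = 0.000398 and 4.9e-05).

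Etfdh, which hands the electrons of ETF to ubiquinone, read 12.87, 12.78 and 12.74 in sWAT at 6°C and 11.44, 11.60 and 11.69 at 28°C (1.22 ± 0.13, 2.33-fold, adjusted p = 0.000257). The groups did not overlap. Acadvl, the very long chain dehydrogenase of the inner membrane, read 13.63, 13.47 and 13.56 at 6°C and 12.36, 12.53 and 12.62 at 28°C (1.05 ± 0.14, adjusted p = 0.00175). The difference was 0.92 ± 0.12 for Acadl and 0.89 ± 0.13 for Acadm, so the 3 dehydrogenases of longer chains moved by similar amounts.

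Cpt2 read 13.05, 12.91 and 12.96 in sWAT at 6°C and 11.81, 12.03 and 12.19 at 28°C (0.96 ± 0.14, 1.95-fold, adjusted p = 0.00261). Hadhb, the thiolase subunit of the trifunctional protein, differed by 0.69 ± 0.09 (1.61-fold, adjusted p = 0.00173), less than Hadha. Its cold arrays read 13.53 to 13.60, above the 99th percentile of the arrays (13.22 to 13.32). The shared Cpt1b probe set read 11.09, 10.26 and 10.83 at 6°C and 7.35, 7.56 and 7.69 at 28°C. Its difference of 3.19 ± 0.23 (9.15-fold, adjusted p = 2.5e-05) exceeded that of every one of the 29 genes, and its warm arrays lay close to the array medians.

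**Figure D1:**
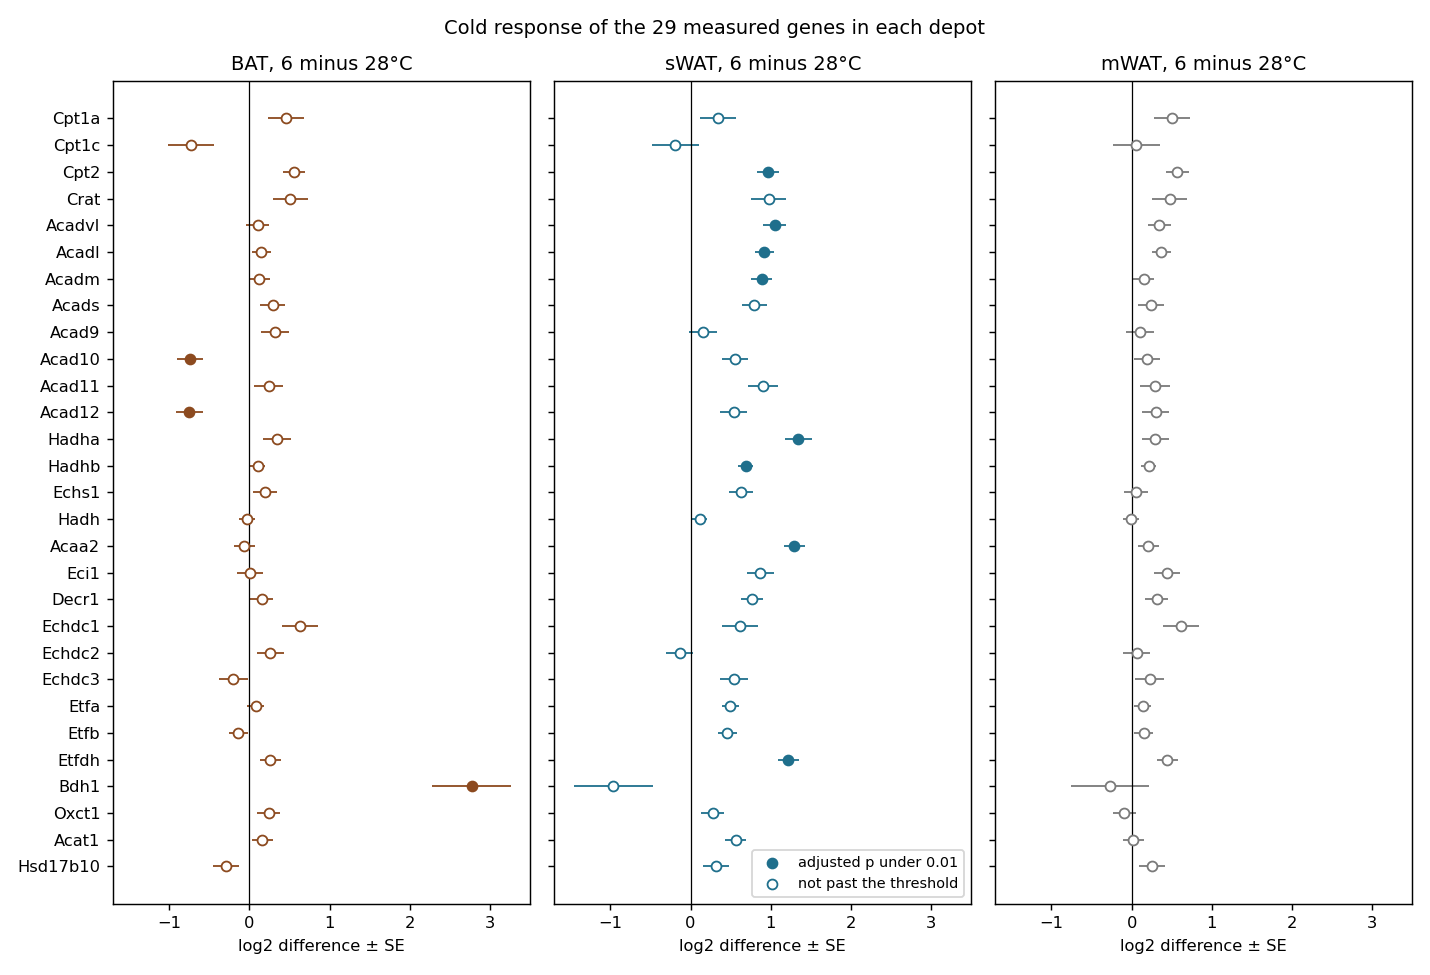
Log2 difference between 6 and 28°C (x axis, ± SE from limma, 3 arrays per group) for the 29 measured genes in BAT, sWAT and mWAT, with filled points past the adjusted p of 0.01. In sWAT 26 of 29 points lie right of 0, whereas in BAT Bdh1 stands alone on the right at 2.77 and Acad10 and Acad12 on the left.

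The other 21 genes did not pass the threshold in sWAT. Those with the largest differences were Crat (carnitine acetyltransferase, 0.97 ± 0.22, adjusted p = 0.042), Bdh1 (-0.96 ± 0.49, 0.462), Acad11 (0.90 ± 0.18, 0.0236) and Eci1, the isomerase for unsaturated acyl-CoA (0.87 ± 0.17, 0.0167). Of 18 other probe sets of these 21 genes 2 passed as higher at 6°C, 1 of Crat (1.25 ± 0.20, adjusted p = 0.00463) and 1 of Acad11 (0.97 ± 0.17, 0.00934). No auxiliary enzyme and no gene of ketone body use passed on the probe sets used. In all 26 of the 29 genes had a positive difference, and for 22 every cold array lay above every warm one (13.1% of all genes). The 3 negative ones were Bdh1, Cpt1c, the brain isoform of carnitine palmitoyltransferase 1, and Echdc2, a hydratase-domain gene of little known role.

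The difference for Hadha was 1.34 and for Acaa2 1.33 without the 4 arrays richest in muscle transcripts (replicates 2 and 3 of BAT at 28°C and replicate 2 of sWAT at each temperature), although none of the 29 then passed (2 arrays against 2). The count was 3 without replicate 1 of sWAT at 6°C, 4 without its replicate 3, 3 without replicate 1 of sWAT at 28°C and 3 without its replicate 2. The sWAT arrays tested on their own gave 0, and 16 passed with the lymphocyte list as a covariate. Lists of genes of other cell types moved with temperature in sWAT. The mean of a brown adipocyte list (8 of 8 measured) was 9.96 to 10.42 at 6°C and 8.05 to 8.50 at 28°C. That of a mammary epithelial list (11 of 12) was 9.95 to 10.03 at 6°C and 10.49 to 11.85 at 28°C. The paper places Ucp1, Elovl3 and Cox7a1, genes of the brown adipocyte list, among those most raised by cold in sWAT. The mean of that list therefore does not count cells. The part of these cell types in the result was not tested. With the muscle list as a covariate Cpt2 (0.91, adjusted p = 0.0101) and Acadm (0.85, 0.0121) no longer passed.

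In BAT few of these genes passed the threshold between the temperatures. Of the 29 genes 1 was higher and 2 lower at 6 than at 28°C past the threshold, against 2.8% of all genes called higher and 2.53% lower, and the median difference was 0.15 (0.008 over all genes). With arrays centred on their medians, 1 was higher and 0 lower. The gene that rose was Bdh1, the enzyme that interconverts 3-hydroxybutyrate and acetoacetate, and those that fell were the neighbours Acad10 and Acad12 of the dehydrogenase family. With temperature the brown adipocyte list averaged 12.11 to 12.17 at 6°C and 11.25 to 11.38 at 28°C in BAT, and an adipocyte list (7 of 8 measured) 12.39 to 12.77 at 6°C and 12.96 to 13.16 at 28°C. Neither overlapped between the temperatures, and their part in the result was not tested. With the lymphocyte list as a covariate 5 genes passed.

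Bdh1 read 7.27, 7.68 and 8.41 in BAT at 6°C and 3.88, 5.50 and 5.68 in BAT at 28°C. The groups were well apart and the fitted difference was 2.77 ± 0.49 (6.83-fold, adjusted p = 0.00219). All 3 warm values lay under the array medians and no detection values were used here, so the size of the change is uncertain. Its other probe set gave 1.16 ± 0.52 (adjusted p = 0.167), and without replicate 3 of BAT at 6°C the adjusted p was 0.0143. That replicate, the highest for Bdh1, was also the BAT array high in the pancreas list, while on the mWAT array highest in that list Bdh1 was the lowest of its group (9.83). The part of pancreas in the BAT difference was not tested.

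Acad10 read 10.07, 10.11 and 10.03 in BAT at 6°C and 10.81, 10.68 and 10.93 at 28°C (-0.74 ± 0.16, 1.67-fold lower, adjusted p = 0.00858). Acad12 read 9.40, 9.34 and 9.34 at 6°C and 10.07, 9.95 and 10.31 at 28°C (-0.75 ± 0.17, 1.68-fold lower, adjusted p = 0.00991). The cold arrays of both genes lay below all warm ones, with a narrow spread. Both calls lay near the threshold and were lost when any single BAT array was left out (of the 18 fits without 1 array, Acad10 passed in 6 and Acad12 in 2), with differences of -0.68 to -0.80 for Acad10 and -0.65 to -0.83 for Acad12. Without the 4 arrays richest in muscle transcripts, which leaves 1 array of BAT at 28°C, they were -0.74 and -0.71. The muscle list was on average lower on the cold BAT arrays, and with it as a covariate the differences were -0.79 (adjusted p = 0.023) and -0.82 (0.0223). Without replicate 3 of BAT at 6°C none of the 29 passed.

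The 26 other genes did not pass in BAT on the probe sets used. The largest differences were those of Cpt1c (-0.73 ± 0.29, adjusted p = 0.123), Echdc1, a decarboxylase that removes ethylmalonyl-CoA (0.63 ± 0.22, 0.0794), Cpt2 (0.56 ± 0.14, 0.0178) and Crat (0.51 ± 0.22, 0.157). Of 23 other probe sets of these 26 genes 2 passed as higher at 6°C, 1 of Crat (1.77 ± 0.20, adjusted p = 7.86e-05) and 1 of Acadl (2.08 ± 0.28, 0.000292). Each was dimmer than the one used, with means over the 18 arrays of 8.04 against 12.20 for Crat and 4.49 against 13.08 for Acadl. For 18 of the 29 genes every cold array lay above every warm one, against 19.9% of all genes. For 7 every cold array lay below every warm one, a direction for which the share of all genes was not counted. The other genes that passed in sWAT differed in BAT by less than Cpt2: 0.34 ± 0.17 for Hadha, 0.26 ± 0.13 for Etfdh, 0.10 ± 0.14 for Acadvl and -0.06 ± 0.13 for Acaa2 among them. Several of these probe sets were near the top of the range in BAT, with Acaa2 at 14.12 to 14.15 at 6°C and 14.17 to 14.22 at 28°C, where the highest value of any probe set was 14.59.

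In mWAT none of the 29 genes passed at 6 against 28°C, and 0.0055% of all genes were called higher and 0% lower. Of the 29 genes, 10 had an unadjusted p under 0.05 in limma, against 837 of all 18193 genes. The median difference was 0.22 (0.0058 over all genes), and 26 of the 29 were positive. For 7 genes all cold arrays lay above all warm ones, against 4.73% of all genes. Cpt2 read 11.89, 11.80 and 12.19 at 6°C and 11.26, 11.27 and 11.64 at 28°C (0.57 ± 0.14, adjusted p = 0.529), with replicate 3 the highest at each temperature. Echdc1 differed by 0.61 ± 0.22 (adjusted p = 1) with overlapping arrays, and Cpt1a, the liver isoform of carnitine palmitoyltransferase 1, by 0.51 ± 0.22 without overlap (adjusted p = 1).

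**Figure D2:**
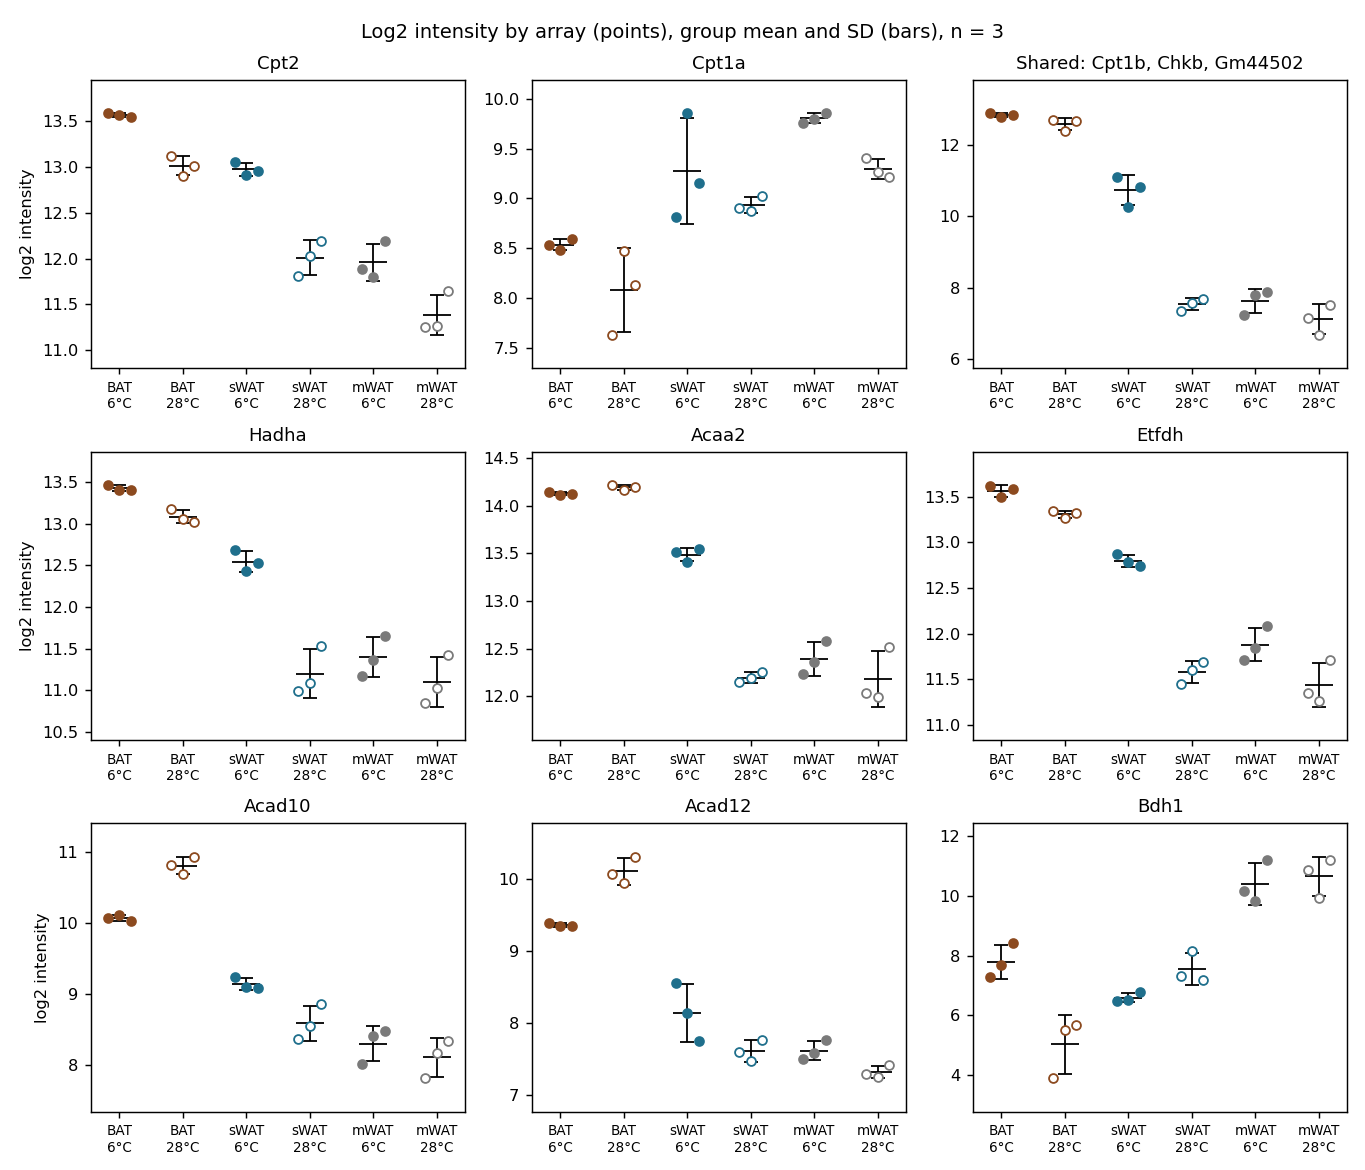
Log2 intensity of 8 genes and the shared Cpt1b probe set (y axis) on each of the 18 arrays, filled points at 6°C and open points at 28°C, with group mean and SD (n = 3). Hadha, Acaa2 and Etfdh at 6°C in sWAT lie between the BAT and the other white fat arrays, Cpt1a is lowest in BAT, and Bdh1 is highest in mWAT.

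The cold responses of sWAT and BAT were set against each other in the same fit. Acaa2 alone of the 29 responded differently past the threshold, with a cold response higher in sWAT by 1.36 ± 0.19 (adjusted p = 0.00325), where 0.28% of all genes were called higher and 0.187% lower. For the shared Cpt1b probe set the responses differed by 2.95 ± 0.33 (adjusted p = 0.00106). The median difference between responses was 0.59 over the 29 genes and 0.0062 over all genes. Acad10 (1.29 ± 0.23, adjusted p = 0.0126) and Acad12 (1.29 ± 0.24, 0.0155) had differences nearly as large and Bdh1 (-3.73 ± 0.69, 0.0154) a larger one, and none of these passed. The Acaa2 call was lost, with an adjusted p of at most 0.0116, without replicate 1 or 3 of BAT at 6°C, any array of BAT at 28°C or replicate 1 or 2 of sWAT at 28°C, when no gene of the 29 passed, and without replicate 3 of sWAT at 6°C, when only Acad12 did. Between 2 and 4 genes passed without replicate 3 of sWAT at 28°C, replicate 1 of mWAT at 6°C, or replicate 1 or 3 of mWAT at 28°C.

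Against mWAT, no difference of cold responses passed for sWAT (0% of all genes called in either direction) or for BAT (0.324% higher and 0.242% lower). For sWAT, 13 of the 29 genes had an unadjusted p under 0.05 in limma, against 1025 of all 18193 genes. For BAT 4 of the 29 did, against 2865 of all 18193 genes. For sWAT minus mWAT the largest difference was 1.09 ± 0.19 for Acaa2 (adjusted p = 0.11). The response of sWAT is therefore not shown to differ from that of mWAT for any of the 29 genes.

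At 28°C, BAT held more of nearly the whole pathway than either white depot. Against sWAT 23 of the 29 genes were higher and 4 lower, where 14.5% of all genes were called higher and 13% lower. Centred arrays gave 24 higher and 1 lower, so not all calls of the 4 lower genes (Cpt1a, Cpt1c, Echdc2 and Bdh1) held there. Against mWAT 23 were higher and 2 lower (17.7% and 14.8% of all genes). The median difference was 1.02 against sWAT and 1.38 against mWAT, with 0.08 over all genes in each case. Every BAT array lay above every sWAT array for 24 genes (30.6% of all genes) and above every mWAT array for 23 (31.6%). The medians of BAT arrays lay below those of sWAT by 0.14 and of mWAT by 0.13 at 28°C. On centred arrays positive differences would be larger by that much, and negative ones smaller in size. Without the 4 arrays richest in muscle transcripts 16 genes passed against sWAT, where 27 did with all arrays. Other cell types differed between the depots too. On the BAT arrays at 28°C the brown adipocyte list averaged 11.25 to 11.38, against 8.05 to 8.50 for sWAT arrays and 7.08 to 7.46 for mWAT arrays. The lymphocyte list averaged 6.21 to 6.89 on BAT arrays, 9.83 to 11.52 on sWAT arrays and 7.44 to 11.66 on mWAT arrays, and the mammary epithelial list 4.21 to 7.31, against 10.49 to 11.85 for sWAT and 6.18 to 7.05 for mWAT. The part of these cells in the differences was not tested.

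All 8 dehydrogenases were higher in BAT in both comparisons. Acad12 led, at 10.07, 9.95 and 10.31 in BAT, 7.60, 7.47 and 7.77 in sWAT and 7.29, 7.25 and 7.41 in mWAT, all at 28°C. BAT stood above both white depots on every array, by 2.50 ± 0.17 against sWAT (5.66-fold, adjusted p = 1.47e-07) and 2.79 ± 0.17 against mWAT (6.93-fold, adjusted p = 3.64e-08). Acad10 followed with 2.22 ± 0.16 against sWAT and 2.71 ± 0.16 against mWAT, and Acad9, which also acts in the assembly of complex I, had the smallest differences of the family at 0.71 ± 0.17 and 1.33 ± 0.17. The part that probes shared between the similar genes Acad10 and Acad12 may have in their like pattern was not tested.

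Among the later steps, Acaa2 was higher in BAT by 2.0 ± 0.13 against sWAT (adjusted p = 1.26e-07) and 2.01 ± 0.13 against mWAT (6.87e-08), and Hadha by 1.88 ± 0.17 and 1.98 ± 0.17. Echs1, the short-chain hydratase, was higher by 1.35 ± 0.15 and 1.59 ± 0.15 and Hadhb by 1.07 ± 0.09 and 1.20 ± 0.09. Hadh, the short-chain hydroxyacyl-CoA dehydrogenase, passed against mWAT (0.38 ± 0.10, adjusted p = 0.00512) and not against sWAT (0.31 ± 0.10, 0.0202). Its probe set had the highest mean over the 18 arrays among the 29, at 14.10, 14.06 and 14.10 in BAT, 13.72, 13.77 and 13.84 in sWAT and 13.68, 13.67 and 13.75 in mWAT. A dimmer probe set of Hadh gave 0.86 ± 0.12 against sWAT and 1.09 ± 0.12 against mWAT.

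Of the auxiliary enzymes, Eci1 was higher in BAT by 1.81 ± 0.17 against sWAT and 2.07 ± 0.17 against mWAT, Echdc3 by 1.37 ± 0.18 and 2.01 ± 0.18, and Decr1, the dienoyl-CoA reductase, by 1.02 ± 0.14 and 1.33 ± 0.14. Echdc1 passed in neither (0.05 ± 0.22 and 0.35 ± 0.22) and overlapped between the depots. Echdc2 was lower in BAT than in sWAT, at 9.98, 9.95 and 10.17 in BAT and 10.64, 10.90 and 10.81 in sWAT (-0.75 ± 0.17, adjusted p = 0.0031). It differed by -0.07 ± 0.17 between BAT and mWAT, and the sign turned on centred arrays (0.058). Etfa and Etfb, the 2 chains of ETF, and Etfdh were all higher in BAT, Etfdh by the most (1.73 ± 0.13 against sWAT and 1.87 ± 0.13 against mWAT).

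**Figure D3:**
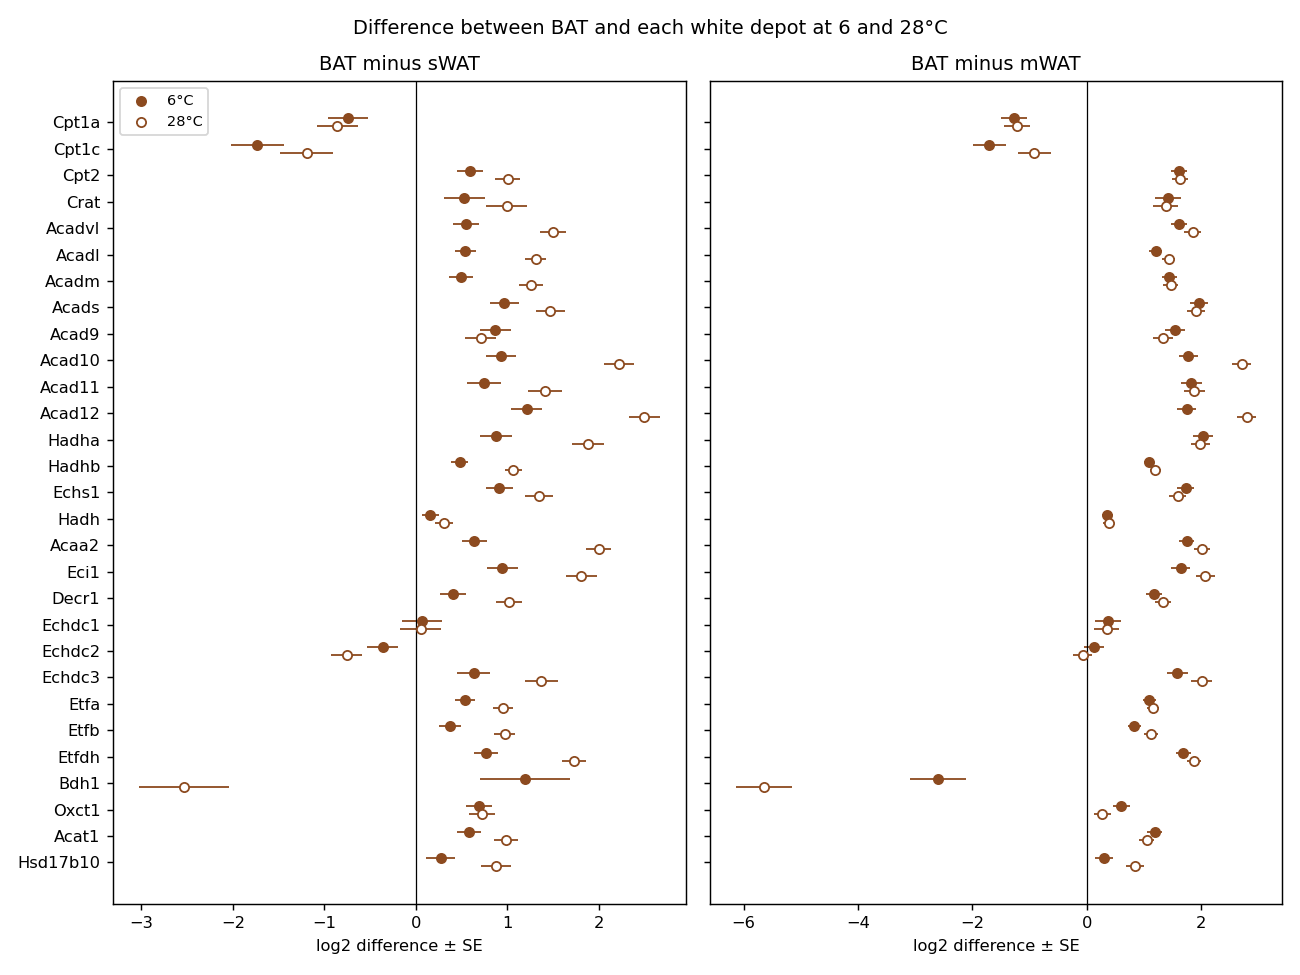
Log2 difference of BAT minus sWAT (left) and BAT minus mWAT (right) for the 29 genes, ± SE from limma, filled points at 6°C and open points at 28°C. The filled points of most genes lie nearer to 0 than the open ones for sWAT (median 0.58 at 6°C and 1.02 at 28°C) and close to them for mWAT (1.41 and 1.38). Cpt1a and Cpt1c lie left of 0 throughout, and Bdh1 does except against sWAT at 6°C (1.20). Echdc2 lies left of 0 in the sWAT panel.

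The carnitine shuttle split by isoform. Cpt2 was higher in BAT by 1.0 ± 0.14 against sWAT and 1.63 ± 0.14 against mWAT, and Crat by 1.0 ± 0.22 and 1.38 ± 0.22. Cpt1a went the other way, at 7.63, 8.47 and 8.13 in BAT, 8.90, 8.88 and 9.02 in sWAT and 9.41, 9.27 and 9.22 in mWAT. Every BAT array lay below every white fat array (-0.86 ± 0.22 against sWAT, adjusted p = 0.008, and -1.22 ± 0.22 against mWAT, 0.000523). As given above, not every call of a gene lower in BAT than in sWAT held on centred arrays. The suffix of the Cpt1a probe set marks probes that may also bind other transcripts. A slightly dimmer probe set of Cpt1a without that suffix gave -1.03 ± 0.21 against sWAT and -1.56 ± 0.21 against mWAT (adjusted p = 0.00135 and 3.1e-05).

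Cpt1c was lower in BAT than in sWAT (-1.19 ± 0.29, adjusted p = 0.00532), while against mWAT the difference of -0.92 ± 0.29 did not pass (0.0213). The shared Cpt1b probe set read 12.71, 12.40 and 12.69 in BAT, 7.35, 7.56 and 7.69 in sWAT and 7.15, 6.67 and 7.52 in mWAT. It was higher in BAT by 5.06 ± 0.23 (33.5-fold, adjusted p = 9.59e-09) against sWAT and 5.48 ± 0.23 (44.8-fold, 3.08e-09) against mWAT. The muscle list averaged 8.81, 12.77 and 12.34 on these BAT arrays, in the same order. The part of muscle in the level of the shared probe set was not tested.

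Among the genes of ketone body use, those for the steps from acetoacetate to acetyl-CoA and Bdh1 differed between depots in opposite directions at 28°C. Oxct1, which activates acetoacetate, was higher in BAT than in sWAT (0.73 ± 0.14, adjusted p = 0.00121) and overlapped with mWAT (0.27 ± 0.14, 0.146). The 3 other probe sets of Oxct1, all dimmer, passed as higher in BAT than in mWAT (0.98 ± 0.24, 1.03 ± 0.21 and 1.44 ± 0.31, adjusted p = 0.00414, 0.00118 and 0.00201). Acat1, the acetoacetyl-CoA thiolase, was higher than in both (0.99 ± 0.13 and 1.05 ± 0.13), as was Hsd17b10, a dehydrogenase of isoleucine breakdown and a subunit of mitochondrial RNase P (0.88 ± 0.16 and 0.85 ± 0.16).

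Bdh1 read 3.88, 5.50 and 5.68 in BAT, 7.33, 8.16 and 7.17 in sWAT and 10.87, 9.93 and 11.20 in mWAT, all at 28°C. The 3 depots did not overlap, with -2.54 ± 0.49 for BAT minus sWAT (adjusted p = 0.00102), -5.65 ± 0.49 for BAT minus mWAT (50.1-fold lower, 6.49e-07) and -3.11 ± 0.49 for sWAT minus mWAT (0.000577). Its other probe set gave -3.01, -6.02 and -3.02 for the same contrasts. All 6 genes of a mesothelial list were measured, and their mean level was 10.07 to 11.55 on the 6 mWAT arrays, 5.80 to 6.91 on the sWAT arrays and 5.08 to 6.27 on the BAT arrays. On the arrays of both mWAT groups Bdh1 was highest in replicate 3, where the mesothelial level was also highest (11.55 at 6°C and 11.46 at 28°C). The same arrays were those low in lymphocyte transcripts (7.34 and 7.44, against 11.44 to 11.66 on the other mWAT arrays). The part of either cell type in the Bdh1 difference was not tested.

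The white depots were close to each other at 28°C. For sWAT minus mWAT, 1 of the 29 genes was higher and 1 lower (3.05% and 4.82% of all genes), and the median was 0.24 (0.05 over all genes). Every sWAT array lay above every mWAT array for 7 genes (15.4% of all genes). The gene that was higher in sWAT was Cpt2, at 11.81, 12.03 and 12.19 in sWAT and 11.26, 11.27 and 11.64 in mWAT (0.62 ± 0.14, adjusted p = 0.0087), and the lower one was Bdh1. The Cpt2 call held in 4 of the 18 fits that leave out 1 array, and not on centred arrays (0 higher and 1 lower). Hadha (0.10 ± 0.17), Acaa2 (0.01 ± 0.13) and Etfdh (0.14 ± 0.13), which rose most in sWAT in the cold, overlapped between the white depots at 28°C.

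At 6°C the order was BAT, then sWAT, then mWAT for most of the pathway. The signs mostly had this order at 28°C too. There, 25 of the 29 differences were positive for BAT minus sWAT and 25 for sWAT minus mWAT, against 26 each at 6°C. Against sWAT 18 genes were higher in BAT and 1 lower (13.4% of all genes in each direction), with a median of 0.58. The count of 19 was 8 without the 4 arrays richest in muscle transcripts and 3 with the lymphocyte list as a covariate. Against mWAT 23 were higher and 3 lower (21.3% and 18.9%), with a median of 1.41. For sWAT minus mWAT 16 were higher and 1 lower (5.17% and 5.01%), with a median of 0.67. Without replicate 1 of mWAT at 6°C the genes called for sWAT minus mWAT numbered 11, against 17, and without the 4 muscle-rich arrays 8. The arrays of the first depot lay above all those of the second for 25 genes in BAT minus sWAT (31.2% of all genes), 23 in BAT minus mWAT (33.9%) and 21 in sWAT minus mWAT (18.3%).

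Hadha at 6°C read 13.47, 13.40 and 13.41 in BAT, 12.68, 12.43 and 12.53 in sWAT and 11.17, 11.36 and 11.65 in mWAT. The 3 depots did not overlap and each step passed, by 0.88 ± 0.17 for BAT minus sWAT (adjusted p = 0.00115) and 1.15 ± 0.17 for sWAT minus mWAT (0.000382). Acads, the short-chain dehydrogenase, kept the same order with 0.97 ± 0.16 and 0.99 ± 0.16, and Acadvl with 0.55 ± 0.14 and 1.06 ± 0.14. Cpt1c (-1.73 ± 0.29 against sWAT, adjusted p = 0.000372) was the gene lower in BAT than in sWAT, and Bdh1, Cpt1c and Cpt1a were those lower in BAT than in mWAT.

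Bdh1 at 6°C read 7.27, 7.68 and 8.41 in BAT, 6.48, 6.51 and 6.78 in sWAT and 10.16, 9.83 and 11.20 in mWAT. BAT now lay above sWAT on every array, though the difference did not pass (1.20 ± 0.49, adjusted p = 0.0667), and both lay below mWAT. Cpt1a was spread widely in sWAT at 6°C (8.81, 9.85 and 9.16), and its difference between BAT and sWAT of -0.74 ± 0.22 did not pass (adjusted p = 0.0174).

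Cold sWAT was then set against warm BAT, 2 groups that differ in depot and temperature. Of the 29 genes 1 was higher in sWAT at 6°C and 11 were lower (9.03% and 8.33% of all genes), with a median of -0.45 (-0.05 over all genes). All arrays of cold sWAT lay above those of warm BAT for 5 genes (25.7% of all genes) and below them for 22. The share of all genes lying below was not counted. Cpt2 read 13.05, 12.91 and 12.96 in sWAT at 6°C and 13.12, 12.91 and 13.02 in BAT at 28°C, which overlapped (-0.04 ± 0.14, with an adjusted p of 0.866). Crat overlapped too (-0.02 ± 0.22). The gene that was higher was Cpt1a (1.20 ± 0.22, adjusted p = 0.00128).

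The largest shortfalls of cold sWAT were those of Acad12 (-1.96 ± 0.17, 3.9-fold lower, adjusted p = 2.9e-06) and Acad10 (-1.67 ± 0.16, 3.19-fold lower, 7.02e-06). Eci1 (-0.94 ± 0.17), Echdc3 (-0.83 ± 0.18), Echs1 (-0.72 ± 0.15), Acaa2 (-0.71 ± 0.13) and Acads (-0.68 ± 0.16) followed, with Etfb, Etfdh, Etfa and Hadhb between -0.51 and -0.38. The shared Cpt1b probe set was lower by a similar step (-1.87 ± 0.23, 3.66-fold lower, adjusted p = 5.79e-05). The count of 12 was 19 on centred arrays (1 higher and 18 lower), 5 without replicate 1 of BAT at 28°C, 7 without its replicate 2 and 6 without its replicate 3, and 5 without replicate 2 or replicate 3 of sWAT at 6°C. It was 3 without the 4 muscle-rich arrays, 7 with the muscle list as a covariate and 5 with the lymphocyte list.

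Genes with larger cold differences in sWAT tended to have a larger excess in BAT over mWAT at 28°C, 2 comparisons with no array in common. Across the 29 genes Pearson's r was 0.80 and Spearman's rho 0.66, and without Bdh1 they were 0.65 and 0.63, while over all 18193 genes they were 0.35 and 0.45. Genes share arrays and are not independent replicates, and arrays of different depots may share mice. On the probe sets used, Acad10 and Acad12 stood off this pattern, with the highest excess in BAT. Their differences in cold sWAT of 0.55 ± 0.16 and 0.54 ± 0.17 did not pass. Other probe sets of Acaa2 gave 1.65 ± 0.12 and 3.05 ± 0.16 for BAT minus mWAT at 28°C, the latter above Acad10 and Acad12.

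**Figure D4:**
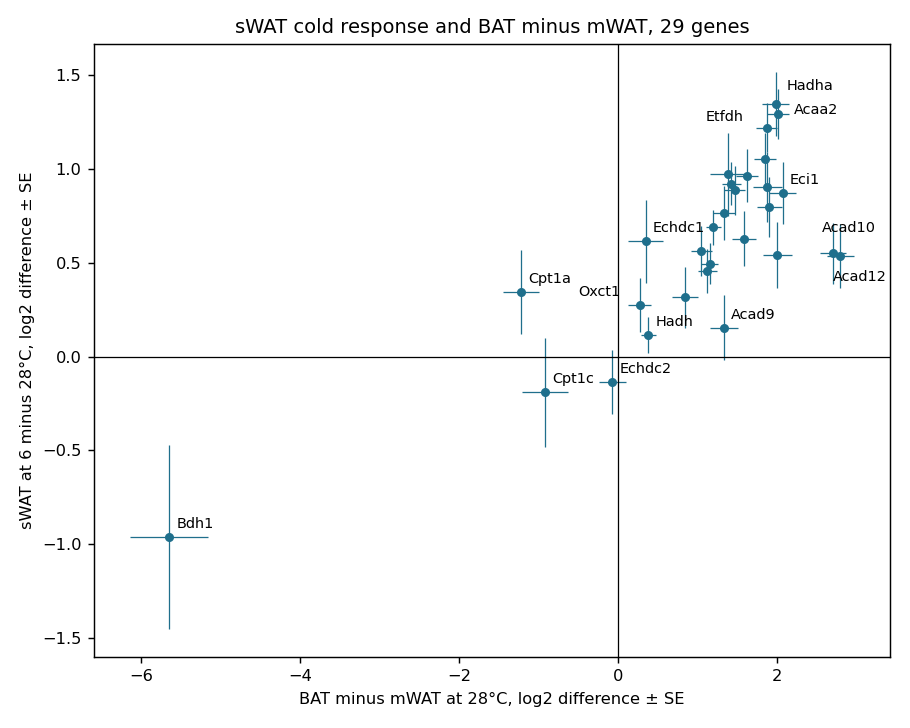
Log2 difference of sWAT at 6 minus 28°C (y axis) against that of BAT minus mWAT at 28°C (x axis) for the 29 genes, each with its SE. Hadha, Acaa2 and Etfdh are at the top right, Acad10 and Acad12 lie far right at middle height, and Bdh1 lies far left.

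Where a gene past the threshold had other probe sets, these had the same sign in the cold comparisons and in BAT against each white depot at 28°C: 7 of 7 in the cold comparison of sWAT (2 past the threshold), 2 of 2 in that of BAT (none past the threshold), 23 of 23 for BAT minus sWAT at 28°C (19) and 22 of 22 for BAT minus mWAT at 28°C (18).

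Of 18 further genes of the pathway, 15 had a probe set naming them alone. In sWAT 3 of the 15 rose in the cold and none fell (0.72% and 0.022% of all genes). Ppara, the nuclear receptor that drives many of these genes, read 8.97, 8.90 and 9.08 in sWAT at 6°C and 5.89, 5.93 and 6.09 at 28°C (3.01 ± 0.27, 8.08-fold, adjusted p = 7.67e-05). Its warm values lay under the array medians. Slc25a20, the carnitine carrier of the inner membrane, differed by 0.76 ± 0.11 and Acsf3, which activates malonate in mitochondria, by 1.07 ± 0.19. In BAT 1 of the 15 rose and none fell (2.8% and 2.53% of all genes): Mlycd, malonyl-CoA decarboxylase, at 11.64, 11.55 and 11.62 at 6°C and 10.59, 10.19 and 10.51 at 28°C (1.17 ± 0.20, 2.26-fold, adjusted p = 0.00143). In mWAT none of the 15 passed, with 3 at an unadjusted p under 0.05 in limma, against 837 of all 18193 genes.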

How the data were processed

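The deposited table holds 1 linear intensity per probe set and array. The authors made these intensities in Bioconductor by background adjustment, summarization and normalization, with no algorithm named. The sources name different array types. Intensities ran from 4.44 to 31897 and came without background or detection values, so depth is not defined and the number of arrays (3 per group, stated as biological replicates) limits precision. Their log2 was tested with limma 3.58.1 in R 4.3.3, with 6 group means over 18 arrays (12 residual degrees of freedom, prior 2.64), 13 contrasts, Benjamini-Hochberg adjustment over 45037 probe sets within each contrast, and a threshold of 0.01. The 64 control probe sets were left out. Of the probe sets 34945 name 1 gene, 932 several and 9160 none, and no gene was named from those with several. The test was checked on simulated data.

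The genes and lists were chosen with earlier results of these data known. Full statistics are given for up to 8 genes past the threshold per comparison with the largest change and no overlap, and values for up to 4 that did not pass. Other genes are named to fill out a role. Alternatives were an adjusted p of 0.05, a 2-fold minimum, the compared groups alone, quantile normalization, median centring, removal of dim probe sets, a variance trend with robust estimates, the mean of probe sets, muscle and lymphocyte lists as covariates, and leaving out each array. Leaving out the 2 mWAT arrays low in lymphocyte transcripts, or the 4 arrays highest in muscle transcripts, was chosen after seeing the data. Promoter windows came from RefSeq (GRCm38.p6).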

Additional observations from a re-analysis of the deposited data

Results flagged for a closer look

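The cold response of Acaa2 was higher in sWAT than in BAT by 1.36 ± 0.19 in a test of the difference itself in limma (adjusted p = 0.00325). The cold response was 1.29 ± 0.13 in sWAT and -0.06 ± 0.13 in BAT, where the probe set was near the top of the intensity range. For the shared Cpt1b probe set, which also names Chkb and Gm44502, the responses differed by 2.95 ± 0.33 (adjusted p = 0.00106).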

How the results depend on the processing

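No paired analysis was possible because the replicate numbers follow accession order and no label ties an array to a mouse. Counts below are of the 29 genes past the threshold. Leaving out 1 array at a time gave 0 to 2 genes for cold in BAT (3 with all arrays), 3 to 11 in sWAT (8), 0 to 0 in mWAT (0), 22 to 27 for BAT minus sWAT at 28°C (27), 24 to 26 for BAT minus mWAT at 28°C (25), 1 to 3 for sWAT minus mWAT at 28°C (2), 13 to 21, 24 to 26 and 11 to 20 for the same depot pairs at 6°C (19, 26 and 17), 5 to 15 for sWAT at 6°C minus BAT at 28°C (12), and 0 to 4 for the cold response of sWAT minus that of BAT (1). BAT cold gave 0 without replicate 3 of BAT at 6°C and 1 without any other BAT array, replicate 2 of either sWAT group or replicate 2 of either mWAT group. The sWAT minus mWAT count at 28°C was 1 without any array other than replicate 1 of sWAT at 28°C, replicate 2 or 3 of mWAT at 6°C and replicate 3 of mWAT at 28°C.

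An adjusted p of 0.05 gave 15 for cold in sWAT, 5 for sWAT minus mWAT at 28°C, 23 for sWAT at 6°C minus BAT at 28°C, 8 for the responses of sWAT minus BAT and 3 for those of BAT minus mWAT. A 2-fold minimum gave 1 for cold in BAT, 4 for cold in sWAT, 1 for sWAT minus mWAT at 28°C, 2 and 6 for BAT and sWAT minus the depot next in order at 6°C, and 3 for sWAT at 6°C minus BAT at 28°C. The compared groups alone, with fewer arrays, gave 0, 0, 1, 3, 6 and 2 for cold in BAT, cold in sWAT, sWAT minus mWAT at 28 and at 6°C, sWAT at 6°C minus BAT at 28°C, and the responses of sWAT minus BAT. Centred arrays gave 1 for cold in BAT, 1 for sWAT minus mWAT at 28°C and 19 for sWAT at 6°C minus BAT at 28°C. A variance trend gave 15 for cold in sWAT and 6 for the responses of sWAT minus BAT, and leaving out dim probe sets 6 for the same responses. With the muscle list as covariate the counts were 1 for cold in BAT, 1 for sWAT minus mWAT at 28°C and 7 for sWAT at 6°C minus BAT at 28°C. With the lymphocyte list they were 5 and 16 for cold in BAT and sWAT, 5 for sWAT minus mWAT at 28°C, 3 for BAT minus sWAT at 6°C, 5 for sWAT at 6°C minus BAT at 28°C, and 9 and 1 for the responses of sWAT minus BAT and minus mWAT. Without the 2 mWAT arrays low in lymphocyte transcripts they were 13, 5, 20 and 6 for cold in sWAT, sWAT minus mWAT at 28°C, sWAT at 6°C minus BAT at 28°C and the responses of sWAT minus BAT. Without the 4 arrays highest in muscle transcripts they were 0 and 0 for cold in BAT and sWAT, 16 and 8 for BAT minus sWAT at 28 and 6°C, 1 and 8 for sWAT minus mWAT at 28 and 6°C, 3 for sWAT at 6°C minus BAT at 28°C and 0 for the responses of sWAT minus BAT. Beyond fewer arrays, the cause was not tested.

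Signs turned for 11 values, none past the threshold with all arrays. With the lymphocyte list as covariate these were Echdc1 at -0.67 for BAT minus sWAT at 28°C and at -0.29 and -0.26 for BAT minus mWAT at 28 and 6°C, Oxct1 at -0.060 for BAT minus mWAT at 28°C, Crat at -0.094 for BAT minus sWAT at 6°C and Echdc2 at -0.24 for BAT minus mWAT at 6°C. For BAT minus mWAT at 28°C Echdc2 was at 0.058 on centred arrays and 0.12 without both low lymphocyte arrays, and it ran from -0.19 to 0.12 when 1 array was left out, positive without replicate 3 of mWAT at 28°C. At 6°C it ran from -0.030 to 0.22, negative without replicate 1 of mWAT at 6°C. For BAT minus sWAT at 28°C Echdc1 ran from -0.18 to 0.21, negative without replicate 1 of sWAT at 28°C. Of the other values for single genes, 3235 kept direction and side of the threshold, 184 lost and 130 gained a call.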

Other observations

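The citrate cycle, into which the acetyl-CoA of both pathways feeds, had 16 of 17 listed genes measured. In the cold 6 of the 16 rose in sWAT and none fell (0.72% and 0.022% of all genes), with a median of 0.56 and 16 positive. None passed in BAT (median 0.03) or in mWAT (median 0.08). No gene of the list had an unadjusted p under 0.05 in limma in BAT or mWAT, against 4822 and 837 of all 18193 genes. At 28°C all 16 were higher in BAT than in sWAT and all 16 higher in BAT than in mWAT, with medians of 1.18 in both, where 14.5% and 17.7% of all genes were called higher.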
